A study of Homo sapiens with 8 samples.

Results

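The response of histone H3 lysine 27 acetylation (H3K27ac) to human interferon beta (hIFNb) was compared between IRF1-guide and control clones of CFPAC1 over all 31961 peaks of the deposited table, so that every peak of the series was a member and none was set aside. CFPAC1 is an established cell line from a human pancreatic ductal adenocarcinoma, and the libraries came from chromatin immunoprecipitation with the Abcam antibody ab4729. Control clones 1 and 4 were infected with the lentiCRISPRv2 plasmid with no guide named, and IRF1-guide clones 11 and 13 with the same plasmid encoding wild-type Cas9 and a guide RNA against the IRF1 gene. All 4 lines were isolated by dilution, each is 1 clone, and each gave 1 untreated library and 1 library after 2 hours of hIFNb, 8 libraries in all. The labels name the target of the guide but do not say whether IRF1 protein is lost, and with 2 clones a genotype a difference between genotypes cannot be told apart from a difference between single clones that happens to split the same way. For each clone the response was log2(score + 1) with hIFNb minus log2(score + 1) without it, where the score is the normalised peak count that the authors deposited. The difference of interest was the mean response of clones 11 and 13 minus that of clones 1 and 4, so a negative value means a smaller rise, or a larger fall, in the IRF1-guide clones.

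Type I interferons bind a cell surface receptor whose JAK kinases phosphorylate STAT proteins, and these join IRF9 in the complex ISGF3, which binds interferon-stimulated response elements in front of antiviral genes. IRF1 is itself induced by interferon and binds DNA through repeats of the same GAAA core, so its sites overlap with those of ISGF3. H3K27ac is deposited by the acetyltransferases p300 and CBP at promoters and enhancers that are in use.

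The 8 libraries had total scores between 3277561 and 3460390, with medians over peaks of 47.4 for the mean score and 3550 bp for the width. The number of reads behind a score is unknown. Across peaks, the responses of the 2 control clones correlated at a Pearson r of 0.68, those of the 2 IRF1-guide clones at 0.51, and the 4 pairs of unlike genotype at 0.43 to 0.52, a description over peaks that share libraries. All 8 ductal markers looked at overlapped a peak, among them KRT7 with scores of 525 to 746 and CDH1 with 509 to 900. Of 24 markers of other cell types 14 overlapped a peak, with a median score of 87.75 against 619.5 for the ductal ones. Their scores, summed over these peaks, were 7469 and 7861 in untreated and 6860 and 6361 in treated control clones, and 8077 and 8654 in untreated and 7443 and 7814 in treated IRF1-guide clones. Most of this sum came from broad peaks over the acinar genes CELA3A (75354 bp) and CPA1. Immune and endothelial markers also overlapped peaks, among them PTPRC (184 to 624), PECAM1 (162 to 300), CD68 (135 to 307) and CD3E (102 to 190). The ductal marker EPCAM had 81 to 129, and CD14, a marker of other cells, 4 to 14. The 10 markers that overlapped none of the peaks analysed here included CD3D, MS4A1, INS and ALB. Whether these levels bear on the responses was not tested.

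At the IRF1 gene, the target of the guide, H3K27ac rose in every clone. The peak that holds its promoter (chr5:132442197-132506408) went from 2014 to 3003 in control clone 1, from 1306 to 2159 in control clone 4, from 1332 to 2265 in IRF1-guide clone 11 and from 1187 to 2033 in IRF1-guide clone 13. The responses of 0.58, 0.72, 0.77 and 0.78 differed by 0.12 ± 0.09 (SE, limma, adjusted p = 0.637), and the difference in score pointed the other way. Acetylation of the gene does not measure the protein and is no check of the guide.

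Promoters of 10 genes described further on are shown first, because IRF and STAT proteins bind known letters and the promoters can be searched for them. Sequences are the bases before the annotated start in RefSeq (GRCh38.p14), 5′ to 3′ on the strand of the gene. Capitals mark matches to a pair of GAAA cores 2 bases apart (GAAANNGAAA), to 3 such cores in a row (GAAANNGAAANNGAAA, which also counts as a pair), or to the STAT half-sites 3 bases apart (TTCNNNGAA), on either strand. A match on the opposite strand appears as its reverse complement. DDX60, IFIT3, RTP4 and IRF9 had a larger response in IRF1-guide clones, ISG15, GBP1 and SOCS1 had no call, and CD38, IL18BP and TINF2 had a smaller one.
DDX60, chr4:168318796-168318865, minus strand: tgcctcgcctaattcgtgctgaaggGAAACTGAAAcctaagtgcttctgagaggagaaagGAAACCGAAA
IFIT3, chr10:89327816-89327884, plus strand: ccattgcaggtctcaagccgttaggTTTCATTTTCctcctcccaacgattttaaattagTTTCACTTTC
RTP4, chr3:187368318-187368377, plus strand: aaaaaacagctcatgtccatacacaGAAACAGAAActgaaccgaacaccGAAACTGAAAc
IRF9, chr14:24161177-24161235, plus strand: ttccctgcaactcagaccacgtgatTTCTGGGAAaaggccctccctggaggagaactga
ISG15, chr1:1013359-1013424, plus strand: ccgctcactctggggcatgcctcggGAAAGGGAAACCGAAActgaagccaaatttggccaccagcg
GBP1, chr1:89065301-89065360, minus strand: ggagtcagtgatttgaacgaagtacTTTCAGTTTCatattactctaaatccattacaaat
SOCS1, chr16:11256283-11256342, minus strand: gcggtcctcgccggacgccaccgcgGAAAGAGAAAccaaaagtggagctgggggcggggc
CD38, chr4:15778268-15778327, plus strand: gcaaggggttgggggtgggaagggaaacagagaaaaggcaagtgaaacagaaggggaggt
IL18BP, chr11:71998849-71998908, plus strand: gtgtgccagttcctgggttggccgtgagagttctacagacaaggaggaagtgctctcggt
TINF2, chr14:24242675-24242734, minus strand: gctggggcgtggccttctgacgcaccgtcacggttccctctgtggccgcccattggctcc
These 10 windows show paired cores in front of DDX60, IFIT3, RTP4, ISG15, GBP1 and SOCS1, a STAT site in front of IRF9, and no match in the stretch shown for CD38, IL18BP and TINF2. The 10 do not stand for all calls. The promoters of HERC6, UBE2L6, HLA-B and HLA-C, also in peaks with a larger response, held no match of any of these kinds. Over the whole RefSeq window, from 250 bases before to 50 after the start, 4 of 19 promoters inside peaks with a larger response in IRF1-guide clones held paired cores (21.1%: DDX60, IFIT3, MX1 and RTP4). None of 11 promoters inside peaks with a smaller response did. The share was 3.18% over 15842 protein-coding promoters and 7.94% over 1675 inside peaks that rose on average. At such shares 11 promoters are too few for a 0 to say anything. The STAT site was found in 3 of the 19 (15.8%), in 0 of the 11 and in 6.97% of all, and the 0 again says nothing. Among promoters in peaks that rose on average, 9.9% of 808 with a larger rise in IRF1-guide clones and 6.06% of 874 with a smaller one held paired cores. A match is a string of letters and not a bound site, and its absence from this window says nothing of binding elsewhere.

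Most peaks that passed the test gained H3K27ac with hIFNb in control clones and gained little or none in IRF1-guide clones. With each clone as its own block, 244 of 31961 peaks differed in response between the genotypes (0.763%; limma, Benjamini-Hochberg adjusted p under 0.05). Of these, 210 had a smaller response in IRF1-guide clones (0.657%) and 34 a larger one (0.106%). The median difference over all peaks was 0.00, and 12.3% of peaks (3919) had an unadjusted p under 0.05. Both IRF1-guide responses lay below both control responses at 21.6% of all peaks and above them at 20.6%, so that a lack of overlap between clones is common without a call.
The calls rest on the pairing by clone and on the moderated variance, since the model has 2 residual degrees of freedom. Without the block 0 peaks passed in limma (0%), with 1258 at an unadjusted p under 0.05 and a smallest adjusted p of 0.599. Likewise 0 passed when any 1 clone was left out (2293 to 3379 at an unadjusted p under 0.05), and 0 when the variance was moderated without its trend on the mean (3232).

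**Figure D1:**
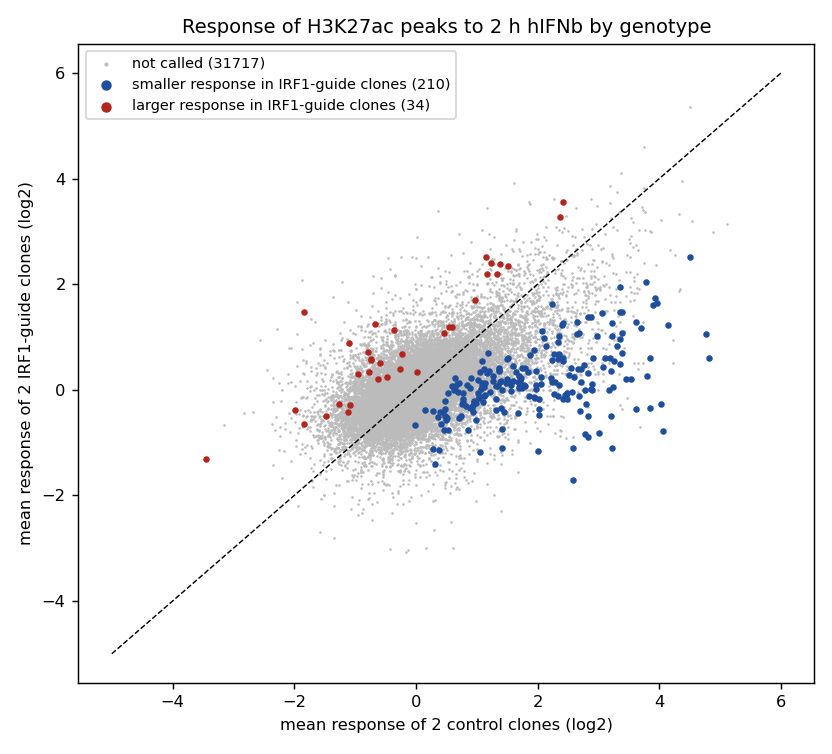
Each point is 1 of 31961 peaks, placed by the mean log2 response to hIFNb of the 2 control clones (horizontal) and of the 2 IRF1-guide clones (vertical), with the dashed line marking equal responses. The 210 blue points (smaller response in IRF1-guide clones) lie to the right of the line, mostly near 0 on the vertical axis, and the 34 red points (larger response) lie above it.

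Over the 210 peaks with a smaller response, the median score was 33.5 and 41 in untreated control clones 1 and 4 and 135 and 131 after hIFNb. In IRF1-guide clones 11 and 13 it was 35 and 40 before and 45 and 43 after. The untreated levels of the genotypes thus lay side by side (median difference 0.08 on the log2 scale) and the treated levels lay apart (median -1.57). In 152 of the 210 (72.4%) control clones rose and IRF1-guide clones had no call, in 39 both rose, in 12 control clones rose while IRF1-guide clones fell, and in 7 only the fall in IRF1-guide clones passed. Rises passed at 4271 peaks in control clones (13.4%) and at 2379 in IRF1-guide clones (7.44%) over the whole table. The members chosen by this call must differ in these columns, so the medians describe them and are no further test.

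The smaller responses were mostly away from promoters. A promoter peak here holds a protein-coding start or lies within 2 kb of one, a distal peak has the nearest start within 50 kb, and a remote peak has none. Promoters made up 25 of the 210 (11.9%), distal peaks 94 (44.8%) and remote peaks 91 (43.3%), against 30.8%, 34.8% and 34.3% of all peaks. A smaller response was therefore called at 0.254% of promoter peaks, 0.844% of distal and 0.829% of remote ones. For the larger responses the order was the reverse, with 18 of 34 at promoters (52.9%), 6 distal and 10 remote. These shares were not tested against each other.

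A gap by place was also seen over the whole group of rising peaks, most of which had no call of their own. On the mean of the 4 clone responses 5295 peaks rose (16.6%) and 5068 fell (15.9%). Among rising promoter peaks the median response was 0.61 in control and 0.54 in IRF1-guide clones. Among rising distal peaks it was 1.05 against 0.67, and among rising remote peaks 1.11 against 0.71. At an average response between 1 and 2, the median difference was -0.04 at 262 promoter peaks, -0.56 at 632 distal peaks and -0.57 at 589 remote peaks. Between 2 and 3 it was 0.13 at 54 promoters, -0.80 at 165 distal peaks and -0.64 at 114 remote peaks. Above 3 the order was another one, with -0.74 at 7 promoters, -0.32 at 25 distal peaks and -0.81 at 15 remote peaks. The average response is computed from the same libraries, as a contrast orthogonal to the difference in this design. Responses spread more over peaks in control clones (SD 0.80 and 0.77) than in IRF1-guide clones (0.70 and 0.65). The average and the difference therefore need not be unrelated over peaks, and the bins are not free of selection. Falling peaks fell slightly less in IRF1-guide clones, with median responses of -0.57 in control and -0.47 in IRF1-guide clones (median difference 0.10). Both IRF1-guide responses lay above both control responses at 29.6% of falling peaks and below them at 12.7%, against 20.6% and 21.6% of all peaks. Among rising peaks these shares were 13.2% and 37.5%.

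**Figure D2:**
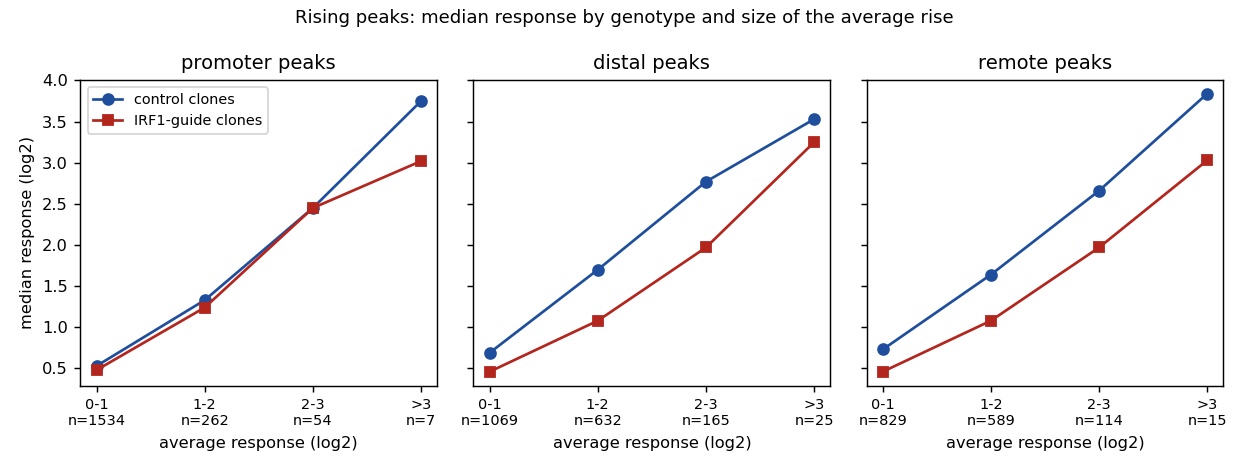
Median log2 response of control clones (blue circles) and IRF1-guide clones (red squares) at peaks that rose on average, by size of the average response, for promoter, distal and remote peaks, with the number of peaks under each bin. The lines run together at promoters up to an average response of 3 and apart at distal and remote peaks. In the last bin, above 3, they part at 7 promoters (-0.74) by more than at 25 distal peaks (-0.32).

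The smaller responses described here are the 12 with the largest log2 difference among the called peaks with a mean score of at least 20 (218 of the 244 in both directions), since log2 differences of weaker peaks turn on a few units of score. Of these 12, 11 were distal or remote, and 11 had no called change in IRF1-guide clones. A remote peak inside KCNIP1, a gene for a potassium channel-interacting protein (chr5:170613607-170623024), went from 12 to 202 in control clone 1 and from 23 to 186 in control clone 4. In IRF1-guide clones 11 and 13 it went from 32 to 33 and from 24 to 31. The treated control clones stood far above the other 6 libraries, and the difference was -3.26 ± 0.37 (95% interval -4.03 to -2.50, limma, adjusted p = 6.96e-05). Without the block its unadjusted p was 3.14e-05 and the adjusted p 0.599.
A peak 12.4 kb from ARRDC3, which encodes an arrestin-domain adaptor of receptor ubiquitination, had the largest difference among them. Its scores rose from 3 to 89 and from 1 to 70 in control clones and went from 2 to 7 and from 6 to 5 in IRF1-guide clones (-4.22 ± 0.75, adjusted p = 0.0052). All 4 untreated libraries were near 0 there, so the log2 values depend on the pseudocount.
Next came a peak in GRAMD1C, a gene for a cholesterol transport protein, with 7 to 76 and 10 to 53 against 7 to 5 and 11 to 4 (-3.62 ± 0.62, adjusted p = 0.00409). A peak in BMPR1A, a receptor for bone morphogenetic proteins, went from 5 to 53 and from 2 to 63 against 8 to 12 and 9 to 9 (-3.53 ± 0.64, adjusted p = 0.00563). The peak linked to HOMER1, a synaptic scaffold gene 44.8 kb away, went from 11 to 102 and from 9 to 103 against 10 to 5 and 7 to 15 (-3.18 ± 0.58, adjusted p = 0.00627). At each of these the control clones after hIFNb were above all other libraries. The other named distal or remote peaks lay in FOXN3 (-3.17 ± 0.63), in ZBTB44 (-2.85 ± 0.49), on chromosome X (-2.91 ± 0.37), on chromosomes 4 and 11 (-2.89 ± 0.61 and -2.70 ± 0.62) and 13.1 kb from ALPP, a placental alkaline phosphatase gene (-2.69 ± 0.56). Their adjusted p-values ran from 0.000155 to 0.0298. The chromosome X peak was the only one of the 12 with a called rise in IRF1-guide clones, from 29 to 84 and from 16 to 32, against 7 to 153 and 13 to 224 in control clones.

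**Figure D3:**
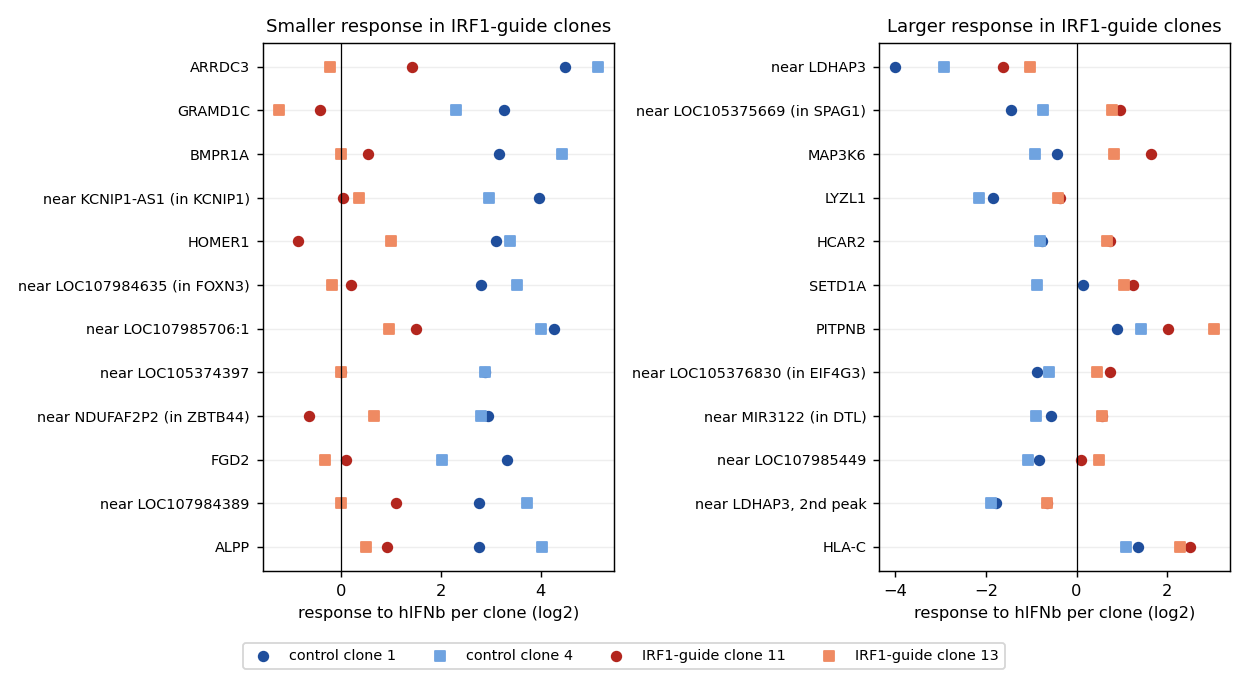
Log2 response to hIFNb of each clone at the 12 called peaks with a mean score of at least 20 and the largest difference in each direction, left those smaller and right those larger in IRF1-guide clones, with blue for control and red for IRF1-guide clones. The peaks on the left rose in both control clones and stayed near 0 in most IRF1-guide clones, and most of those on the right fell in control clones.

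The 25 promoters with a smaller response belonged to genes of many kinds, and those named by rule were IL18BP, CX3CL1 and FGD2. At IL18BP, which encodes a secreted decoy for interleukin 18 and is a known IRF1 target (chr11:71998402-72001893), the score rose from 22 to 152 and from 19 to 84 in control clones. It went from 16 to 18 and from 10 to 20 in IRF1-guide clones. Treated control clones were the only high libraries, with a difference of -1.86 ± 0.44 (adjusted p = 0.0369). CX3CL1, the gene of the membrane-bound chemokine fractalkine, lay in a peak of 36410 bp that went from 478 to 854 and from 518 to 762 against 421 to 484 and 480 to 503 (-0.56 ± 0.13, adjusted p = 0.0375). The promoter of FGD2, a guanine nucleotide exchange factor for CDC42, went from 10 to 110 and from 20 to 84 against 15 to 16 and 9 to 7 (-2.79 ± 0.51, adjusted p = 0.00652). At these 3 promoters all IRF1-guide libraries were at or near the untreated control level.
Other promoters, chosen after their values were seen, also had a smaller response, though IRF1-guide clones did not stay at the untreated level at all of them. CD38, the gene of an NAD-consuming ectoenzyme, went from 205 to 465 and from 216 to 436 in the control clones and from 129 to 149 and from 188 to 195 in IRF1-guide clones (-0.96 ± 0.17, adjusted p = 0.00535). TINF2, a shelterin gene, went from 123 to 441 and from 127 to 326 against 124 to 193 and 138 to 166 (-1.14 ± 0.20, adjusted p = 0.00471). CTSS, a cathepsin gene of antigen processing, went from 22 to 90 and from 48 to 108 against 47 to 46 and 34 to 34 (-1.58 ± 0.34, adjusted p = 0.0217). FADD, the adaptor of death receptors, rose in both genotypes but by less in IRF1-guide clones, from 240 to 594 and from 284 to 548 against 258 to 376 and 230 to 270 (-0.74 ± 0.16, adjusted p = 0.0239).

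**Figure D4:**
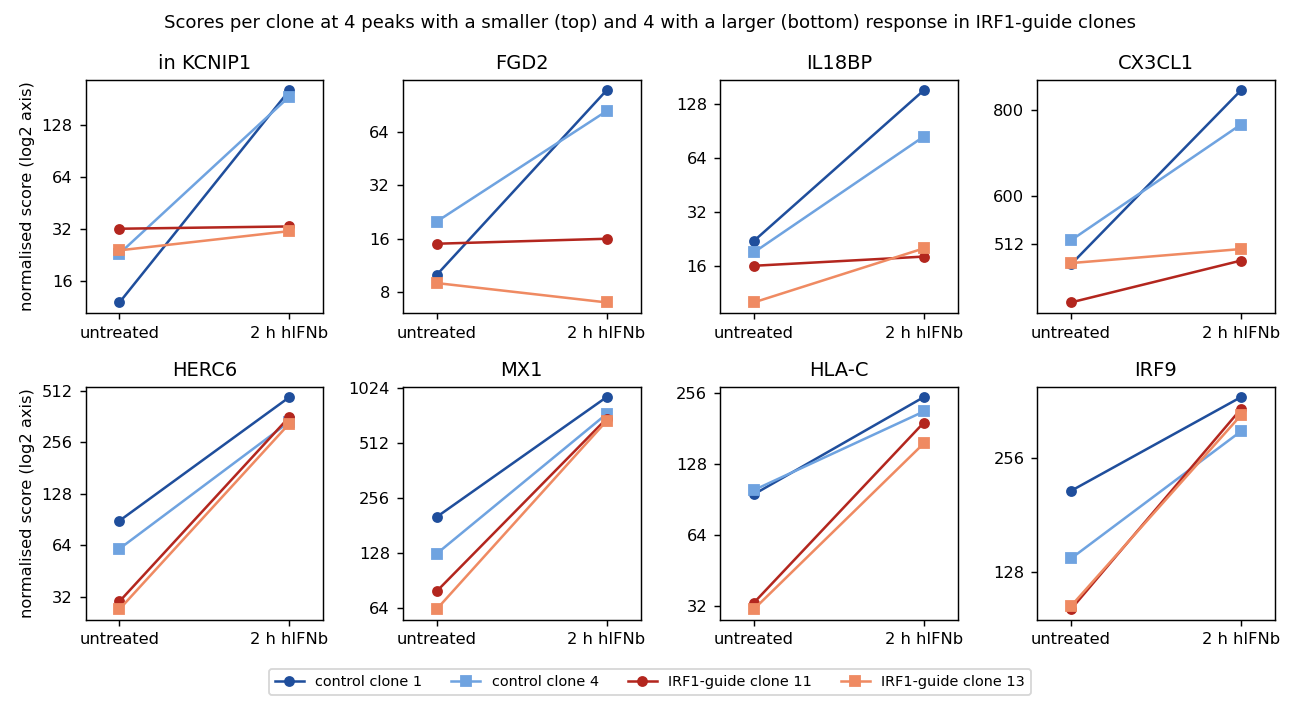
Normalised score of each clone without and after 2 hours of hIFNb (log2 axis, each panel with its own range) at 4 peaks with a smaller response in IRF1-guide clones (top) and 4 with a larger one (bottom), control clones in blue and IRF1-guide clones in red. In the top panels the genotypes start close together and part with hIFNb, and in the bottom panels IRF1-guide clones start lower and end close to or among the control clones.

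Among the antiviral genes of the interferon response several had a larger response in IRF1-guide clones on the log2 scale. Of 54 peaks at interferon-stimulated genes, 6 were called larger, against 0.106% of all peaks. At the 0.657% called smaller over all peaks fewer than 1 would be met among 54, so the 0 found there says nothing of these genes. On average 52 of the 54 rose. The median response was 1.14 and 1.22 in control clones 1 and 4 and 1.64 and 1.48 in IRF1-guide clones 11 and 13. The median difference was 0.46, against 0.00 over all peaks, and it was above 0 at 45 of the 54. Measured as a rise in score, however, 28 of the 54 rose by more and 26 by less in IRF1-guide clones, so the direction of this group depends on the scale. The median genotype difference in level was -0.59 without hIFNb and -0.14 with it, on the log2 scale.
HERC6, an interferon-induced ubiquitin ligase gene (chr4:88370880-88386389), went from 89 to 471 and from 61 to 338 in control clones. It went from 30 to 361 and from 27 to 330 in IRF1-guide clones. The untreated IRF1-guide libraries were the lowest of all and the treated ones lay close to control clone 4, giving a difference of 1.13 ± 0.21 (adjusted p = 0.00663). MX1, a dynamin-like GTPase that blocks viruses, went from 202 to 918 and from 127 to 742 against 79 to 699 and 63 to 679 (0.91 ± 0.17, adjusted p = 0.00663). RTP4, which restrains viral replication, went from 198 to 460 and from 147 to 400 against 51 to 266 and 61 to 252 (0.87 ± 0.19, adjusted p = 0.0251). At RTP4 the IRF1-guide clones were lower both without and with hIFNb. On the linear scale these 3 had smaller rises in IRF1-guide clones (-12.5, -47.5 and -54.5 in score), none of which passed. DDX60, a helicase gene, went from 146 to 276 and from 70 to 187 against 68 to 260 and 43 to 242 (1.03 ± 0.23, adjusted p = 0.0257), and rose by more on either scale. The others called were IFIT3 and UBE2L6, the latter the conjugating enzyme for ISG15 (0.60 ± 0.15 and 0.83 ± 0.20, adjusted p = 0.0463 and 0.0464).
RSAD2, the gene of the antiviral enzyme viperin, did not pass (57 to 387 and 31 to 396 against 19 to 268 and 17 to 282, 0.67 ± 0.27, adjusted p = 0.283), and as a rise in score it was smaller by -90.5 and passed on that scale (adjusted p = 0.0265). ISG15, the ubiquitin-like modifier, had nearly equal responses of 1.08, 1.08, 1.15 and 1.23 (0.11 ± 0.12, 95% interval -0.13 to 0.35, adjusted p = 0.761).

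MHC class I had larger log2 responses at 2 genes for the heavy chains. HLA-C went from 95 to 245 and from 99 to 213 in the control clones and from 33 to 191 and from 31 to 156 in IRF1-guide clones. All 4 IRF1-guide values were below the control values of the same treatment, and the difference in response was 1.17 ± 0.23 (adjusted p = 0.0124). HLA-B went from 113 to 307 and from 99 to 250 against 39 to 225 and 28 to 139 (1.00 ± 0.22, adjusted p = 0.0255), with a smaller rise in score (-24.0, not passing). The HLA genes are close paralogs, and reads could be split between them. Of 16 peaks in the list 2 were called, both larger (0.106% of all peaks), while the rise in score was smaller at 10 of the 16. PSMB8 of the immunoproteasome (0.56 ± 0.18, adjusted p = 0.178) and B2M (0.53 ± 0.19, adjusted p = 0.208) did not pass.

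In the signalling pathway itself 1 of 15 peaks was called, against 0.763% of all peaks, too few to tell from that share. IRF9, the DNA-binding subunit of ISGF3, went from 210 to 372 and from 139 to 302 in the control clones and from 102 to 346 and from 104 to 333 in IRF1-guide clones. The untreated IRF1-guide libraries were lowest and the treated ones lay between the treated controls (0.74 ± 0.18, adjusted p = 0.0414). JAK2 and SOCS1, the feedback inhibitor of JAK kinases, pointed the other way without passing. SOCS1 went from 32 to 291 and from 38 to 204 against 41 to 152 and 33 to 120 (-0.92 ± 0.28, adjusted p = 0.13), and JAK2 had responses of 1.44 and 1.38 against 0.66 and 0.04 (-1.06 ± 0.33, adjusted p = 0.155). For both the clones did not overlap, with the IRF1-guide responses below, as at 21.6% of all peaks and 37.5% of rising ones. In this list that was so at 3 of 15 peaks, and the reverse at 4.
Of 10 peaks at interferon regulatory factor genes that of IRF9 was again the only one called (0.763% of all peaks), and the peak 6.76 kb from IRF8 gave -1.19 ± 0.34 (adjusted p = 0.106). The type III interferon genes, close paralogs on chromosome 19, rose from almost nothing in all clones. IFNL2 went from 1 to 163 and from 5 to 87 in the control clones and from 5 to 59 and from 4 to 38 in IRF1-guide clones (-1.97 ± 0.62, adjusted p = 0.155). IFNL3 gave -1.90 ± 0.56 (adjusted p = 0.125), and IFNL1, listed at 0 in both untreated IRF1-guide libraries, gave -0.42 ± 0.84 (adjusted p = 0.889), a value that turned above 0 without clone 1 or clone 13. None of the 5 peaks of that list was called.

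Most of the guanylate-binding protein genes with a peak, GTPases that attack intracellular pathogens, leaned towards a smaller response without a call. GBP1 went from 130 to 445 and from 86 to 404 in the control clones and from 74 to 176 and from 102 to 225 in IRF1-guide clones, with no overlap after hIFNb (-0.81 ± 0.20, 95% interval -1.22 to -0.40, adjusted p = 0.0521). GBP4 went from 57 to 179 and from 42 to 172 against 11 to 21 and 14 to 28 (-0.91 ± 0.35, adjusted p = 0.271). GBP5 (-0.76 ± 0.31) and GBP6 (-0.73 ± 0.27) did not pass either (adjusted p = 0.297 and 0.253). GBP3 pointed the other way, with responses of 0.27 and 0.31 in control and 0.77 and 0.58 in IRF1-guide clones (0.39 ± 0.20, adjusted p = 0.452). The distal peak of GBP7 was nearly level (-0.06 ± 0.19, adjusted p = 0.933). Across the 8 peaks of this list, which also holds APOL genes, the median response was 1.45 and 1.24 in control clones. It was 0.95 and 0.67 in IRF1-guide clones. The difference was below 0 at 6 of the 8, and above 0 at GBP3 and APOL2. Among all peaks with an average rise of up to 1, it was below 0 at 55.2% of promoters and 68.8% of distal peaks. Between 1 and 2 these shares were 53.4% and 74.7%. A list of 8 peaks, 6 of them promoters and the rest distal, is too small to tell from such shares.
Genes known as IRF1 targets from other work had little in the way of calls. Their log2 differences were below 0 about as often as at rising promoters in general. Of 20 peaks, 1 had a smaller response (IL18BP) and 0 a larger one, against 0.657% and 0.106% of all peaks, which a list of this size cannot be told from. On the log2 scale 12 differences were below 0 and 8 above, with a median of -0.14. The median response was 1.06 in control and 1.10 in IRF1-guide clones. Over all promoters that rose by an average of up to 1, the difference was below 0 at 55.2%, and between 1 and 2 at 53.4%. The 12 of 20 lie near those shares. As a rise in score, 15 peaks were smaller in IRF1-guide clones and 5 larger, with no share over all peaks at hand. CXCL10, a chemokine gene that shares its peak with CXCL11, went from 30 to 389 and from 50 to 361 against 25 to 161 and 17 to 91 (-0.74 ± 0.29, adjusted p = 0.263). TLR3, a sensor of double-stranded RNA, was larger on the log2 scale (1.08 ± 0.37, adjusted p = 0.198) and slightly smaller as a rise in score (-6.0). Of 13 peaks at chemokine and checkpoint genes 2 were called, IL18BP and CX3CL1, both smaller (0.657% of all peaks). Many IRF1 targets and antiviral genes appear in more than 1 list.

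**Figure D5:**
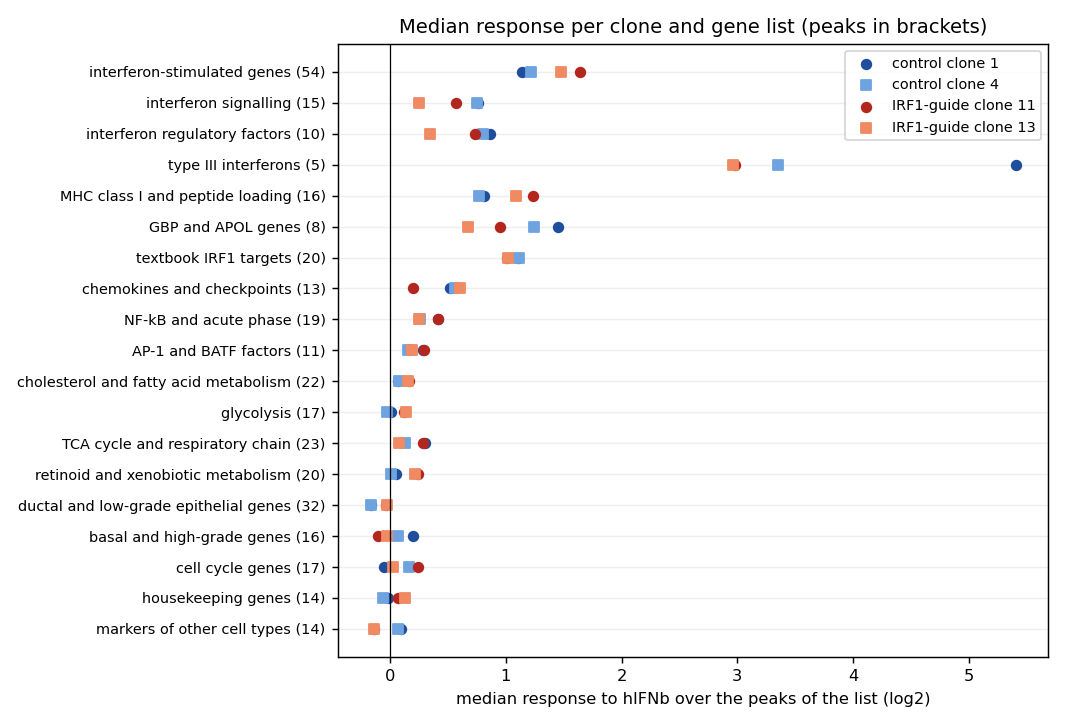
Median log2 response to hIFNb of each clone over the peaks of 19 gene lists, with the number of distinct peaks in brackets, control clones in blue and IRF1-guide clones in red. Interferon-stimulated genes and MHC genes lie to the right in IRF1-guide clones, GBP and APOL genes to the left, and in lists outside the interferon response the clone medians lie between -0.17 (ductal genes) and 0.41 (NF-kB and acute phase genes).

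No peak of the lists outside the interferon response was called in limma, where the share of 0.763% over all peaks gives fewer than 1 call in a list of any of these sizes. These were NF-kB and acute phase genes (19 peaks), AP-1 and BATF factors (11), cholesterol and fatty acid metabolism (22), glycolysis (17), the TCA cycle and respiratory chain (23), retinoid and xenobiotic metabolism (20), ductal and low-grade epithelial genes (32), basal and high-grade genes (16), cell cycle (17), housekeeping genes (14) and markers of other cell types (14). Their median differences lay between -0.05 and 0.16. The nearest to the threshold was BIRC3, an inhibitor of apoptosis and NF-kB target, which went from 600 to 585 and from 559 to 698 in the control clones and from 625 to 465 and from 684 to 538 in IRF1-guide clones (-0.53 ± 0.13, adjusted p = 0.0575). A distal peak 30.9 kb from GCG gave -1.71 ± 0.45 (adjusted p = 0.0744). Among 14 housekeeping promoters 8 differences were above 0 and 6 below, and the clones of the genotypes did not overlap at 6 (5 higher and 1 lower in IRF1-guide clones, against 20.6% and 21.6% of all peaks). The lower one was SDHA, which went from 158 to 347 and from 148 to 299 against 109 to 173 and 163 to 195 (-0.61 ± 0.19, adjusted p = 0.155). GAPDH gave 0.32 ± 0.17 (adjusted p = 0.448) and ACTB -0.01 ± 0.19 (adjusted p = 0.99).

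The 34 larger responses were of several kinds. In 12 both genotypes rose, in 12 control clones fell and IRF1-guide clones had no call, in 4 both fell, in 5 only IRF1-guide clones rose, and in 1 control clones fell while IRF1-guide clones rose. Without hIFNb 29 of the 34 were lower in IRF1-guide clones, with a median of -0.72, and with hIFNb the median was 0.19. Of the 34, 27 also rose by more, or fell by less, in score, and 7 did not.
Among those with a mean score of at least 20 the largest was a remote peak near the pseudogene LDHAP3 (chr2:41805469-41810007), which fell from 31 to 1 and from 37 to 4 in the control clones and from 42 to 13 and from 111 to 54 in IRF1-guide clones (2.14 ± 0.51, adjusted p = 0.0379). The difference in the change of score was -11.5, the opposite sign, so its direction depends on the scale. A second peak beside it (chr2:41821368-41833335) fell from 157 to 45 and from 170 to 45 against 226 to 144 and 328 to 209 (1.19 ± 0.21, adjusted p = 0.00409). VAV3, a nucleotide exchange factor gene chosen after its values were seen, had the same form, from 99 to 33 and from 102 to 38 against 217 to 137 and 318 to 252 (0.98 ± 0.23, adjusted p = 0.0314). In these the IRF1-guide clones were the higher ones throughout.
Opposite movements were seen at MAP3K6, a stress kinase gene, where the promoter went from 30 to 22 and from 33 to 17 in the control clones and from 16 to 52 and from 26 to 47 in IRF1-guide clones (1.91 ± 0.43, adjusted p = 0.0295). The peak linked to HCAR2, a receptor for hydroxybutyrate and niacin, went from 76 to 44 and from 81 to 46 against 36 to 61 and 27 to 44 (1.50 ± 0.32, adjusted p = 0.0197). There the fall in control clones and the rise in IRF1-guide clones each passed. SETD1A, a histone H3 lysine 4 methyltransferase gene, had mixed control clones (46 to 51 and 54 to 29) and rising IRF1-guide clones (30 to 72 and 36 to 75, 1.50 ± 0.36, adjusted p = 0.0387). Peaks inside SPAG1, EIF4G3 and DTL also fell in control clones, with no call in IRF1-guide clones (1.98 ± 0.48, 1.33 ± 0.32 and 1.30 ± 0.30), and so did those near LYZL1 and on chromosome 20 (1.61 ± 0.35 and 1.25 ± 0.27). PITPNB, a lipid transfer protein gene, had a distal peak that rose in every clone, from 95 to 178 and from 87 to 233 against 49 to 200 and 26 to 221 (1.37 ± 0.27, adjusted p = 0.0128). It started lower in IRF1-guide clones and ended level.
MUC4, a mucin gene chosen after its values were seen, lay in a broad peak that also started lower, from 1173 to 1905 and from 1030 to 1202 against 762 to 1490 and 458 to 1048 (0.62 ± 0.13, adjusted p = 0.0142).

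The column headers of the table carry an ending, R1 for clones 1 and 11 and R2 for clones 4 and 13, whose meaning the sources used here do not give. The deviations between the endings were almost unrelated across genotypes (Pearson r over peaks of 0.091 without and 0.099 with hIFNb). With the ending as a term of the response, a setting chosen after seeing the data that leaves 1 residual degree of freedom, 785 peaks passed (2.46%), 573 smaller and 212 larger, among them all 244.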

How the data were processed

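H3K27ac chromatin immunoprecipitation and sequencing was analysed in 8 libraries, 1 untreated and 1 with hIFNb from each of 2 control and 2 IRF1-guide clones. The submitters' processing notes name Bowtie2 and the build GRCh38 (hg38). How peaks were called, counted and scaled is not given in the sources used here, which limits what a score means. The deposited values are a score per peak and library, a normalised count given in whole numbers. No count model was therefore used, and the depth behind a value is unknown. Per the file headers, the table also gives the nearest transcription start sites.

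Tests used log2(score + 1), and no peak was filtered out, as each had a score above 0 in 2 or more libraries. The difference in response was an interaction in limma 3.58.1 (R 4.3.3) with 1 coefficient per clone, a mean-variance trend, two-sided tests and Benjamini-Hochberg adjustment over 31961 peaks, called under an adjusted p of 0.05. Errors are standard errors. The p-values set a difference against a moderated variance, with 2 residual degrees of freedom from the clones and 25.4 prior ones shared across peaks. They therefore reflect the spread between clones at a given peak only in part. An exact permutation of 2 against 2 responses cannot go below 0.333, so none was run. The clone number pairs the libraries, because both come from 1 line, and over peaks the untreated and treated deviations from the genotype mean correlated at 0.437 in control and 0.392 in IRF1-guide clones. The fit was also run on simulated data, with noise independent between libraries and a spread set by the mean score alone. That setting lacks any spread between clones particular to a peak, so the run does not bear on whether the calls hold.

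Peaks were linked to the nearest protein-coding start within 50 kb, from the names in the deposited table (93.0% matched RefSeq symbols) or RefSeq. A peak can hold several starts, and a gene with no start in either source was not linked. Promoter sequences came from RefSeq (GRCh38.p14). Genes were named by rule: up to 12 called peaks per direction by size among those with a mean score of at least 20 and clones that do not overlap, up to 4 genes per list by p, the 12 largest average rises at promoters, and a few fixed genes (IRF1, IRF9, ISG15, GAPDH and ACTB among them). Some items that the rule names are not reported here. The members, the lists and the rule were chosen with earlier results of these data known. Alternatives were other pseudocounts, filters, scalings, variance moderation and scales, the fit without the block, and leaving out each clone.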

Additional observations from a re-analysis of the deposited data

Results flagged for a closer look

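The 2 genotypes differed in their response to hIFNb, by the test of the difference itself, at 210 peaks with a smaller and 34 with a larger response in IRF1-guide clones. Among called peaks with a mean score of at least 20, the largest smaller responses were those at ARRDC3 (-4.22), GRAMD1C (-3.62), BMPR1A (-3.53), in KCNIP1 (-3.26), at HOMER1 (-3.18), in FOXN3 (-3.17), on chromosome X (-2.91), on chromosome 4 (-2.89), in ZBTB44 (-2.85), at FGD2 (-2.79), on chromosome 11 (-2.70) and at ALPP (-2.69). The largest larger ones were near LDHAP3 (2.14 and 1.19), in SPAG1 (1.98), at MAP3K6 (1.91), LYZL1 (1.61), HCAR2 and SETD1A (1.50 each), PITPNB (1.37), in EIF4G3 (1.33), in DTL (1.30), on chromosome 20 (1.25) and at HLA-C (1.17). All 24 are log2 differences between 2 and 2 clones, and 0 of them passed without the clone block (limma, smallest adjusted p = 0.599).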

How the results depend on the processing

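Of the 244 calls, 0 were left without the replicate block, without the variance trend, or when any 1 clone was left out (0 to 0 in each direction). More peaks passed with a pseudocount of 5 (423, of which 373 smaller) or 10 (703, 614 smaller and 89 larger), on the linear scale (1028, 953 smaller and 75 larger), on the square-root scale (935, 844 and 91) and with the column ending as a term, added after seeing the data (785, 573 and 212). The other scalings, robust moderation and a mean score of at least 20 gave 225 to 253 calls, sharing 215 to 244 with the 244. The average response gave 2918 calls without the paired block, 4634 without the trend and 3580 to 6694 without 1 clone, against 10363.

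On the linear scale the direction turned at a peak near LDHAP3 (-11.5), HERC6 (-12.5), MX1 (-47.5), RTP4 (-54.5), HLA-B (-24.0), TLR3 (-6.0), CFB (-24.5), RSAD2 (-90.5), HERC5 (-7.5) and IRF1 (-31.5), and on the square-root scale at RSAD2 (-0.89). With 1 clone left out the difference ran from -2.22 to 0.05 at IRF4, from -1.45 to 0.61 at IFNL1 and from -0.26 to 0.24 at ACTB, highest without clone 1. It ran from -0.48 to 0.06 at IFNLR1, from -0.68 to 0.12 at PRR20G and from -1.22 to 0.45 at CYP1A1, highest without clone 13. ACTB also turned with each of 3 scalings (0.02, 0.02 and 0.03). The cause was not tested. The genotype difference thus rests on 2 clones a side, on the pairing and on variance shared across peaks, and low scores limit the log2 values near 0.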
